A study of Mus musculus with 10 samples.

Results

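The epicardium is the sheet of simple epithelium that covers the heart, and 10 genes known for marking it in the embryo were followed here: Wt1, Tbx18, Tcf21, Upk3b, Upk1b, Aldh1a2, Krt8, Krt18, Krt19 and Msln. Every probe set whose platform annotation gives exactly 1 gene symbol, and 1 of these symbols, was taken, which gave 18 of the 45037 probe sets that are not array controls and 10 of 18193 genes. The rule itself reads only the annotation. Whole hearts were taken from female mouse embryos 13.5 days post coitum, and RNA of 4 to 5 hearts of 1 genotype made up each pool. Control littermates gave 5 pools, and embryos carrying 1 heart conditional knockout allele of Hccs beside a normal allele gave the other 5, with 1 array for each pool. Hccs lies on the X chromosome and encodes the haem lyase that completes cytochromes c and c1. Because an X chromosome is silenced in each female cell, the knockout hearts are mosaics of cells with and without the enzyme, and the series description places strong division of the healthy cardiomyocytes at this stage. The Cre driver, whether the controls carry a floxed allele or Cre, the strain, and whether epicardial cells recombine are not given in the sources used here.

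Epicardial cells arise from the proepicardium, spread over the myocardium, and keep an epithelial state with keratin filaments and uroplakins. Some of them later undergo an epithelial to mesenchymal transition, enter the heart wall, and give rise to fibroblasts and mural cells of the coronary vessels. The epicardium also makes retinoic acid and growth factors that promote division of the underlying cardiomyocytes. The question was whether transcripts of this layer differ between mosaic and control hearts.

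RefSeq promoter windows of assembly GRCm38.p6 were at hand for 6 of the 10 genes, and the 250 bases before the start site are printed for 4 of them. Tcf21 is shown because its groups were the only ones among the 18 probe sets that did not overlap, Krt8 and Krt18 because their signals followed each other most closely from pool to pool, and Upk3b because it shares a short motif with them. The windows are chr10:22820144-22820393 on the minus strand for Tcf21, chr15:102004343-102004592 on the minus strand for Krt8, chr15:102027966-102028215 on the plus strand for Krt18, and chr5:136038246-136038495 on the plus strand for Upk3b. Capitals mark AGGTCA, the core letters bound by retinoic acid receptors and other nuclear receptors.
Tcf21: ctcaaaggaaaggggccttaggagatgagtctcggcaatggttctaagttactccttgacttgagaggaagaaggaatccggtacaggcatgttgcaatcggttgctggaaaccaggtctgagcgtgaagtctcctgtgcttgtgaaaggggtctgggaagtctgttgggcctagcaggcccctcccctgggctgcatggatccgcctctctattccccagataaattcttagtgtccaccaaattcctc
Krt8: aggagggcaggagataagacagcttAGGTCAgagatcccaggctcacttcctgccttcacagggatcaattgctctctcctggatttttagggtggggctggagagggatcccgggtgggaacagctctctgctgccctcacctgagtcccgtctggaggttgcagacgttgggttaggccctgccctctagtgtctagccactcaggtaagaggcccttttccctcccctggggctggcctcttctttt
Krt18: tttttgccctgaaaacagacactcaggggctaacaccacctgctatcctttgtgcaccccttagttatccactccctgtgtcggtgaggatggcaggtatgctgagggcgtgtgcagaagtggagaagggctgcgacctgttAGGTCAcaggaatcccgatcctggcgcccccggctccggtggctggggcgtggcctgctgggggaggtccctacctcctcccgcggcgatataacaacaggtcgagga
Upk3b: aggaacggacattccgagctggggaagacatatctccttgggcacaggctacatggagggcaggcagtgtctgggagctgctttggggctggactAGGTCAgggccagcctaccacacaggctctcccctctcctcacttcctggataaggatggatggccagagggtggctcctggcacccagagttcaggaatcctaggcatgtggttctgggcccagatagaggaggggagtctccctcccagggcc
The letters AGGTCA stand 225 bases before the start of Krt8, 108 before that of Krt18 and 155 before that of Upk3b, and not in the windows of Tcf21, Tbx18 and Aldh1a2. Over 32851 promoter windows of this length, 14.0% hold them on either strand. GATAAG, letters bound by GATA factors and sought on either strand like the motifs that follow, was found for Upk3b and Krt8 and in 6.55% of all windows. GGAATG, bound by TEAD factors, was found for Upk3b alone of the 6 and in 12.6% of all windows. GGGCGG, the GC box, was in none of the 6 and in 32.7% of all windows. TATAAA, the TATA box, was in none of the 6 and in 12.4% of all windows, and CAGCTG, an E-box as bound by basic helix-loop-helix factors, in none and in 13.0%. These matches are descriptions of letters and do not overlap each other. In this assembly Krt18 is the next protein-coding gene after Krt8 on chromosome 15.

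Hccs itself was lowest in the knockouts, whose 5 pools all lay below the 5 control pools. Log2 signals of its brighter probe set were 11.11, 11.31, 11.28, 11.20 and 11.25 in control replicates 1 to 5, and 10.81, 10.73, 10.90, 10.57 and 10.39 in knockout replicates 1 to 5. The log2 change, knockout minus control, was -0.55 (SE 0.091, limma adjusted p = 0.0304; exact two-sided permutation p = 0.00794, the smallest that 5 against 5 arrays allow). Its adjusted p was between 0.062 and 0.0763 without control replicate 1, 2, 3 or 4 or knockout replicate 2 or 4, where it no longer passed. Deposited log2 signals spanned 0.602 to 16.6 with array medians of 3.65 to 3.75, and precision is limited by how many arrays there are. At a limma adjusted p of 0.05, 513 probe sets passed (1.14%), with 370 (0.822%) higher in the knockouts and 143 (0.318%) lower. That number was 104, 250, 66 and 142 without control replicates 1 to 4, 1871 without knockout replicate 1, and 157, 147, 133 and 188 without knockout replicates 2 to 5. The 10 cardiomyocyte markers checked the tissue, with mean log2 signals of 14.6 to 14.8 in control pools and 14.3 to 14.5 in knockout pools.

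None of the 18 epicardial probe sets passed the threshold in the limma fit over all probe sets, against a background of 1.14%. Without adjustment, 2 of the 18 had a limma p under 0.05, those of Tcf21 and of the dimmer Tbx18 probe set, both higher in knockouts. Of all probe sets 20.0% had one, and 13.7% had one with the knockouts higher. Groups did not overlap for 1 of the 18, with the knockouts higher, against 5.26% of all probe sets in either direction and 3.79% with the knockouts higher. By the brightest probe set of each gene it was 1 of 10, against 3.86% of all genes with the knockouts higher. The median log2 change of the 18 was 0.20, and that of all probe sets 0.026. A positive change was seen for 15 of the 18, and for 62.3% of all probe sets. In whole hearts, fewer cells of a type and less RNA per cell cannot be told apart, and because arrays were brought to a similar distribution each change is relative to the other transcripts.

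**Figure D1:**
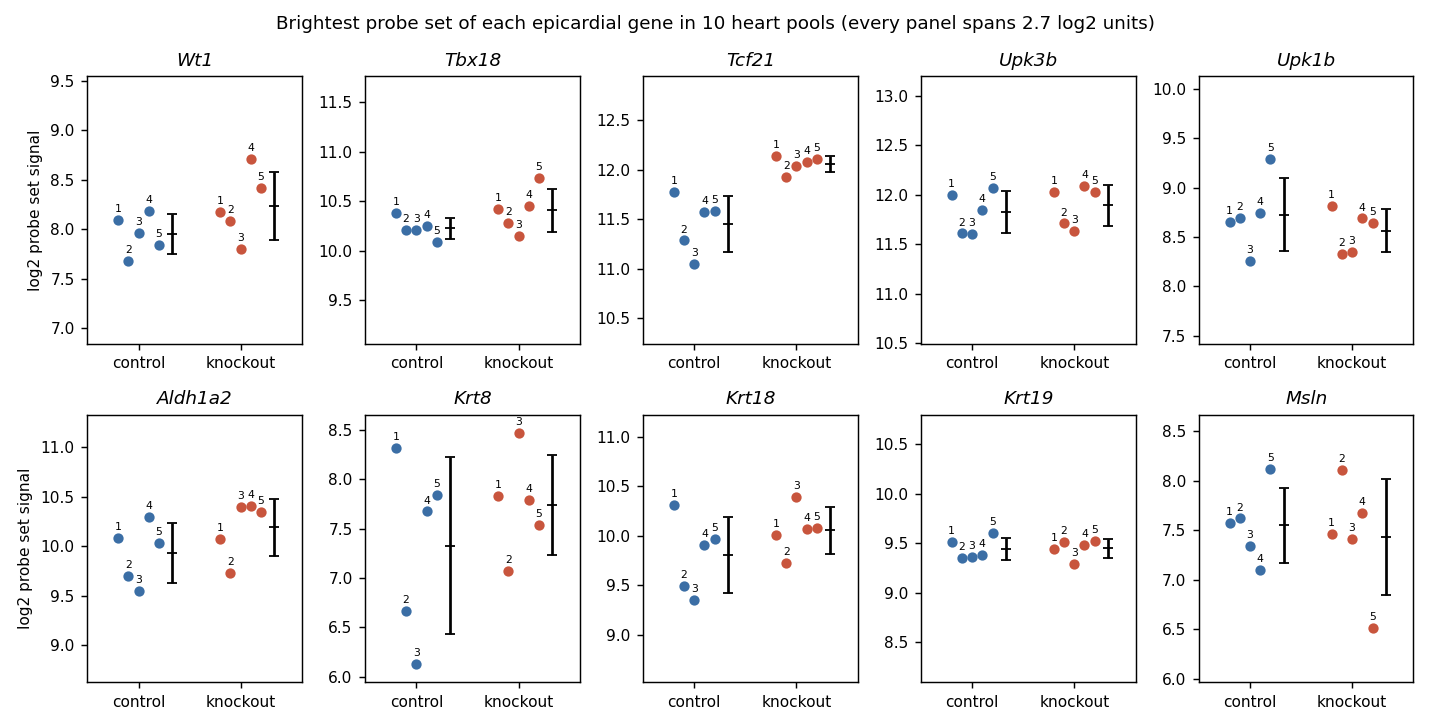
Log2 signal of the brightest probe set of each of the 10 epicardial genes in every heart pool. Points are pools labelled by replicate number, and bars are mean ± SD (n = 5 each). All 5 knockout pools lie above all controls for Tcf21, and the groups overlap for the other 9 genes.

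Among the transcription factors, Tcf21 showed the largest difference of the 18 probe sets. Tcf21 is a basic helix-loop-helix factor of the epicardium and of the fibroblast lineage that comes from it. Log2 signals of its brighter probe set (1417447_at) were 11.77, 11.29, 11.05, 11.57 and 11.58 in control replicates 1 to 5, and 12.14, 11.93, 12.03, 12.08 and 12.11 in knockout replicates 1 to 5. The lowest knockout pool lay above the highest control pool, and the spread was narrower in knockouts (SD 0.082) than in controls (SD 0.28). Mean levels were 11.45 and 12.06, a 1.52-fold difference with a 95% interval from 1.26 to 1.84 (log2 change 0.61, SE 0.12, n = 5 each). The limma adjusted p was 0.0544 over all probe sets, which missed the threshold. When the brightest probe set stood for each gene and 18193 genes were tested, Tcf21 had a limma adjusted p of 0.0376 and was the only one of the 10 genes to pass, where 2.58% of genes passed in either direction and 1.63% were higher. The adjusted p ran from 0.0339 to 0.133 over all alternatives. The log2 change was 0.51 to 0.69 with 1 array left out, and 0.27 (adjusted p = 0.0931) when the mean of both Tcf21 probe sets stood for the gene. A dimmer Tcf21 probe set (1458887_at) had a mean log2 signal of 3.42, below every array median, so it may not lie above background. It changed by -0.059 on the log2 scale (SE 0.096). A probe set at background could not register a change, so neither the mean of both nor their difference can show that they disagree on Tcf21. The changes of these 2 probe sets differed by 0.66 on the log2 scale (exact permutation p = 0.00794, adjusted p = 0.0317 over 8 pairs of probe sets of the same gene).

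Tbx18, a T-box factor of the proepicardium and epicardium, was measured by 2 probe sets. For the dimmer (1449871_at) the log2 signals were 9.07, 8.47, 8.42, 8.48 and 8.78 in control replicates 1 to 5, and 9.21, 9.06, 8.91, 9.00 and 9.24 in knockout replicates 1 to 5. All 5 knockout pools lay above the control median, and control replicate 1 lay among them. The log2 change was 0.44 (95% interval 0.15 to 0.73, limma adjusted p = 0.128). The brighter probe set (1429974_at) ran from 10.09 to 10.38 in controls and from 10.15 to 10.73 in knockouts, with a log2 change of 0.18 (95% interval -0.048 to 0.41, limma adjusted p = 0.341), or 0.098 without knockout replicate 5. The difference between these changes was 0.26 (exact permutation p = 0.0952, adjusted p = 0.19 over the 8 pairs).

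Wt1 encodes a zinc-finger factor that holds the epicardium in its progenitor state and takes part in its transition. Its log2 signals were 8.09, 7.68, 7.96, 8.18 and 7.84 in control replicates 1 to 5, and 8.18, 8.08, 7.80, 8.71 and 8.42 in knockout replicates 1 to 5. Knockout replicates 4 and 5 lay above every control, while knockout replicate 3 lay below 4 of the 5 controls. The log2 change was 0.29 (95% interval -0.084 to 0.66, limma adjusted p = 0.35), or 0.17 without knockout replicate 4. Its only probe set (1425995_s_at) carries a suffix that marks probe sets matching more than a single transcript.

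The uroplakin genes encode membrane proteins known from the bladder lining that also mark mesothelial surfaces. Upk3b was measured by 2 probe sets, whose deviations from the genotype means correlated at 0.96 over the 10 arrays. Log2 signals of the brighter (1454881_s_at) ran from 11.61 to 12.07 in controls and from 11.63 to 12.08 in knockouts, so that the groups covered almost the same range. Its log2 change was 0.069 (95% interval -0.21 to 0.35) and that of the other (1434237_at) 0.074 (95% interval -0.23 to 0.38). Here the interval leaves room for a knockout level of 0.864 to 1.27 times the control level.

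Upk1b, a tetraspanin uroplakin, had 4 probe sets whose changes differed in sign. Its brightest probe set (1435831_at) gave 8.65, 8.69, 8.26, 8.75 and 9.29 in control replicates 1 to 5 and 8.82, 8.32, 8.34, 8.69 and 8.64 in knockout replicates 1 to 5. No knockout pool lay above the highest control, and the log2 change was -0.16 (95% interval -0.56 to 0.23, limma adjusted p = 0.612), or -0.024 without control replicate 5. The log2 changes of the others were 0.031 (1455464_x_at), 0.19 (1457065_at) and 0.21 (1439760_x_at), none past the threshold. Probe set 1439760_x_at had a mean log2 signal of 3.78, close to the highest array median of 3.75. Against the brightest probe set, the change was larger by 0.20 (exact permutation p = 0.151, adjusted p = 0.241), 0.35 (p = 0.0238, adjusted p = 0.0635) and 0.38 (p = 0.00794, adjusted p = 0.0317). From pool to pool all 3 still followed the brightest, with correlations of deviations of 0.88, 0.87 and 0.83. Past the threshold were therefore 2 of the 8 pairs, 1 in Tcf21 and 1 in Upk1b, each with a probe set whose signal lay near the array median. The count was 3 without control replicate 4, and 0 without control replicate 5 or any single knockout replicate.

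**Figure D2:**
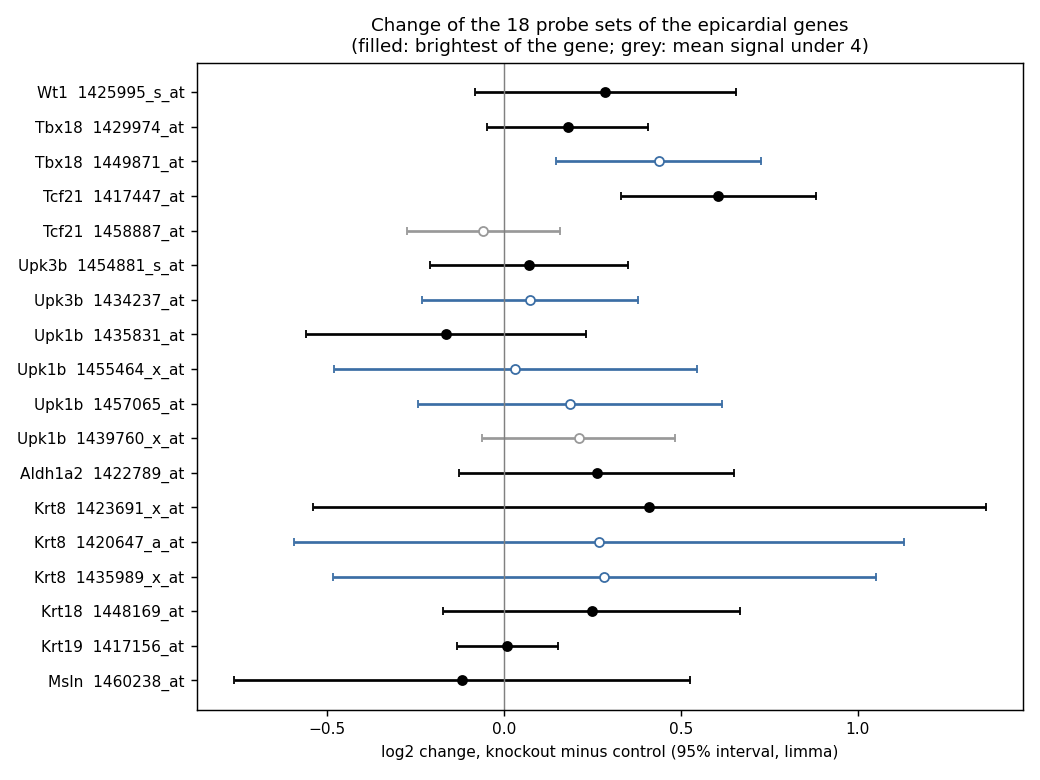
Log2 change, knockout minus control, of all 18 probe sets with the 95% interval of the limma fit (5 pools each). Filled points are the brightest probe set of a gene, open points the others, and grey points have a mean signal under 4. Intervals exclude 0 for Tcf21 1417447_at and Tbx18 1449871_at, and they are widest for Krt8.

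Aldh1a2 encodes the retinaldehyde dehydrogenase that makes retinoic acid in the epicardium. Its log2 signals were 10.08, 9.69, 9.55, 10.29 and 10.03 in control replicates 1 to 5, and 10.07, 9.73, 10.39, 10.41 and 10.35 in knockout replicates 1 to 5. Knockout replicates 3, 4 and 5 lay above every control, and knockout replicate 2 lay near the low end of the controls. The log2 change was 0.26 (95% interval -0.13 to 0.65, limma adjusted p = 0.412), or 0.17 without control replicate 3.

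Krt8 and Krt18 encode the type II and type I keratins that pair into the filaments of simple epithelia. The brightest Krt8 probe set (1423691_x_at) gave 8.32, 6.67, 6.13, 7.67 and 7.84 in control replicates 1 to 5 and 7.83, 7.07, 8.46, 7.79 and 7.53 in knockout replicates 1 to 5. Control replicates 2 and 3 were the lowest of all pools and knockout replicate 3 the highest. The spread, an SD of 0.90 in controls and 0.51 in knockouts, was larger than the log2 change of 0.41 (95% interval -0.54 to 1.36, limma adjusted p = 0.596). The suffix of this probe set marks probes that may bind other transcripts. Log2 changes of the other Krt8 probe sets were 0.27 (1420647_a_at) and 0.28 (1435989_x_at), and they followed the brightest with correlations of deviations of 0.95 and 0.97. With control replicate 3 and knockout replicate 3 both left out, an alternative chosen after seeing the data, the 3 Krt8 changes were -0.069, -0.14 and -0.11. These pools held the lowest control and the highest knockout signal of each Krt8 probe set, so leaving out both had to lower the change. With any single array left out, the changes stayed positive, at 0.11 to 0.66 (1423691_x_at), 0.062 to 0.46 (1420647_a_at) and 0.074 to 0.47 (1435989_x_at). Krt18 gave 10.31, 9.49, 9.35, 9.90 and 9.97 in control replicates 1 to 5 and 10.01, 9.72, 10.39, 10.07 and 10.08 in knockout replicates 1 to 5, nearly the order of Krt8. Its log2 change was 0.25 (95% interval -0.17 to 0.67, limma adjusted p = 0.471), and 0.049 without control replicate 3 and knockout replicate 3. Leaving out control replicate 3 alone gave 0.11 for the brightest Krt8 probe set and 0.13 for Krt18, and knockout replicate 3 alone 0.23 and 0.16. Without control replicate 1 they were 0.66 and 0.37, and without control replicate 2 Krt8 was 0.25.

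Krt19, a type I keratin of simple epithelia, behaved differently from that pair. Log2 signals lay between 9.35 and 9.61 in controls and between 9.29 and 9.52 in knockouts, with an SD of 0.11 and 0.096. The log2 change was 0.0092 (95% interval -0.13 to 0.15), which leaves room for a knockout level of 0.911 to 1.11 times the control level. Msln, the mesothelial surface protein mesothelin, ran from 7.10 to 8.12 in controls and from 6.52 to 8.11 in knockouts. Knockout replicate 5 was the lowest of all pools at 6.52, and the log2 change was -0.12 (95% interval -0.76 to 0.53, limma adjusted p = 0.832).

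Variation between pools of 1 genotype was compared among the 10 genes. Deviations from the genotype means were compared over the 10 arrays for 45 pairs of genes, each with its brightest probe set, and p-values come from all 14400 exact permutations within genotype. Krt8 and Krt18 varied together (Pearson r = 0.98, exact permutation p = 0.000556; Spearman rho = 0.95, exact p = 0.000972), with an adjusted p of 0.025 over the 45 pairs and an r of 0.96 without the 2 arrays farthest from the median, control replicates 1 and 3. No other pair passed the adjustment. Tcf21 followed Krt8 with r = 0.89 (exact permutation p = 0.00368, adjusted p = 0.0789; rho = 0.79, exact p = 0.0278), and r was 0.72 without the same 2 arrays. Aldh1a2 and Krt18 gave r = 0.80 (exact permutation p = 0.0127, adjusted p = 0.0953; rho = 0.67, exact p = 0.0458), and 0.60 without control replicate 3 and knockout replicate 2. Upk3b and Upk1b gave r = 0.79 (exact permutation p = 0.00701, adjusted p = 0.0789; rho = 0.76, exact p = 0.0207), and r was 0.69 without control replicate 3 and knockout replicate 3. Wt1 and Tbx18 gave r = 0.68 (exact permutation p = 0.0776, adjusted p = 0.297; rho = 0.84, exact p = 0.0109) and 0.67 without knockout replicates 3 and 4. Msln ran against Tbx18 with r = -0.67 (exact permutation p = 0.0792, adjusted p = 0.297; rho = -0.47, exact p = 0.223), and r was -0.61 without knockout replicates 3 and 5.

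**Figure D3:**
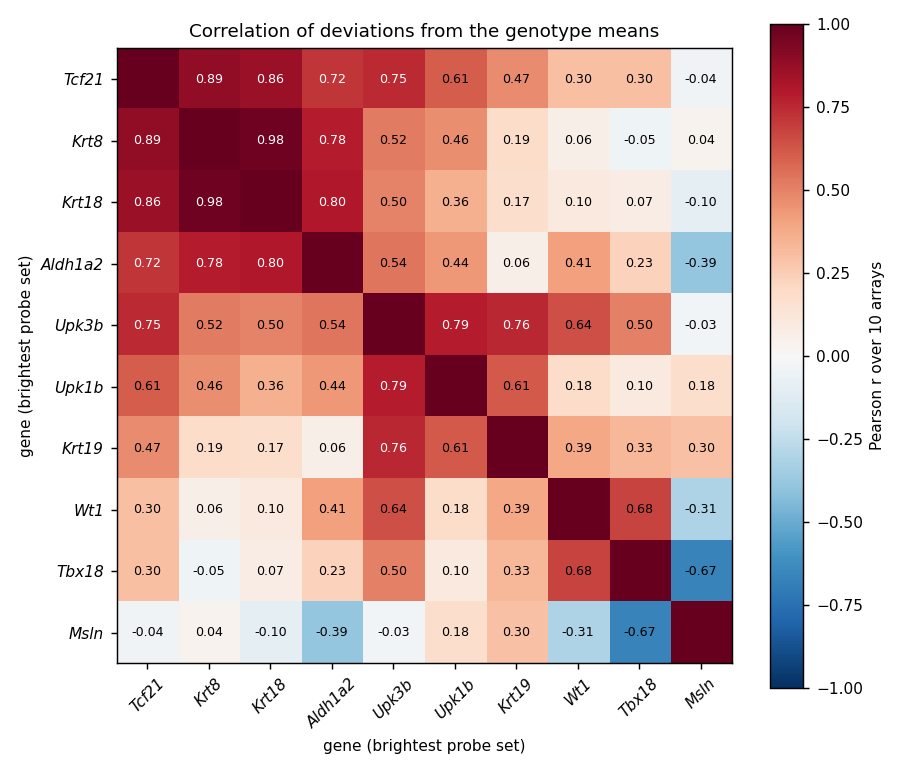
Pearson correlation of deviations from the genotype means over 10 arrays for each pair of the 10 epicardial genes, both axes listing the genes and colour and number giving r. Krt8 with Krt18, at 0.98, is the only pair past the adjustment over 45 pairs, and Msln has r between -0.67 and 0.30 with the others.

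The mean deviation of the 10 genes was highest in control replicate 1 (0.24) and lowest in control replicate 3 (-0.34), and in knockouts it lay between -0.15 and 0.14. Krt8 deviated most of the 10 in both of these control pools, by 0.99 and -1.19, with no scaling for spread in the mean deviation. Among 10906 other genes above the 40th percentile of mean level, the 8 with the deviations most like it over the 10 arrays were Paqr5 (r = 0.98), Kdelr2 (0.95), Lsm7 (0.94), Rftn2 (0.93), Rpl7 (0.93), Paqr7 (0.93), Cept1 (0.93) and Itgb1bp1 (0.93). These are the highest of many correlations over 10 arrays that share 1 normalization, and they are given as a description. The keratin gene Krt7 ranked 19th by that measure with r = 0.89, Nkain4 318th with 0.73, and Bnc1, a zinc-finger factor of mesothelium, 480th with 0.69. These are the highest of the 17 genes of the wider list of epicardium and mesothelium among the candidates, and the lowest were Ezr (r = -0.29), Clu (-0.30) and Itga4 (-0.39, ranked 9134th).

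Markers of lung and foregut epithelium differed strongly between pools, and Krt8 and Krt18 are also keratins of such epithelia. The mean log2 signal of these 10 markers ranged from 2.58 to 4.44 in controls and from 2.75 to 6.38 in knockouts, and none of the 10 passed the threshold in limma (median log2 change 0.83, 9 of 10 positive). Sox2, a factor of the foregut lining, ran from 3.27 to 7.43 over the 10 pools, the signalling factor gene Shh from 3.40 to 8.76 and Cdh1, E-cadherin, from 3.08 to 7.86. Sftpc, which encodes a surfactant protein of the lung, was at 7.08 in knockout replicate 3 and between 2.65 and 2.83 in all other pools. Nkx2-1, which defines lung epithelium, stayed between 1.49 and 1.57 in all 10, below every array median, so it may not lie above background. The list level was lowest in control replicates 2 and 3 and knockout replicate 2, at 2.58, 2.61 and 2.75. In these 3 pools Krt8 was at 6.67, 6.13 and 7.07, Krt18 at 9.49, 9.35 and 9.72, and Tcf21 at 11.29, 11.05 and 11.93. That last Tcf21 value, the lowest of the knockouts, still lay above every control. The order did not hold in all pools. Control replicate 1 had the highest Krt8 and Krt18 of the controls (8.32 and 10.31) at a list level of 3.49. Control replicate 4 had the highest control level, 4.44, with Krt8 at 7.67 and Krt18 at 9.90.

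Over 60 relations of the 10 genes with 6 lists of other cell types, none passed the adjustment. The level of lung and foregut markers followed Krt8 within genotypes with r = 0.74 (exact permutation p = 0.00736, adjusted p = 0.442; rho = 0.76, exact p = 0.0117), and r was 0.70 without knockout replicates 2 and 3. With that level as a term in the fit, an alternative added after seeing the data, the Tcf21 log2 change was 0.55 (limma adjusted p = 0.125), and those of the 3 Krt8 probe sets were 0.043 (1423691_x_at, the brightest), -0.11 (1420647_a_at) and -0.040 (1435989_x_at). With that term Krt18 was at 0.095 and Aldh1a2 at 0.12. The lung and foregut level also followed Aldh1a2 (r = 0.70) and Krt18 (0.69), and ran against Tbx18 (-0.44) and Krt19 (-0.38). Krt8 and Krt18 ran against the cardiomyocyte markers with r of -0.69 and -0.63 (exact permutation p = 0.0409 and 0.0699, adjusted p = 0.491 and 0.525). Without control replicate 3 and knockout replicate 3 these were -0.45 and -0.36. Wt1 followed the liver markers with r = 0.78 (exact permutation p = 0.0253, adjusted p = 0.491; rho = 0.76, exact p = 0.0362), and r was 0.57 without knockout replicates 4 and 5. Of 10 liver markers 8 were measured and none passed in limma (median log2 change 0.20, 5 of 8 positive), with a mean log2 signal of 3.55 to 5.37 in controls and 3.50 to 6.64 in knockouts. Afp, alpha-fetoprotein, was at 14.52 and 14.26 in knockout replicates 4 and 5 and between 8.78 and 12.67 in the others, and the apolipoproteins Apoa1 and Apoa2 reached 9.02 and 7.64. How far RNA of such tissues takes part in the keratin and Wt1 signals was not tested.

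**Figure D4:**
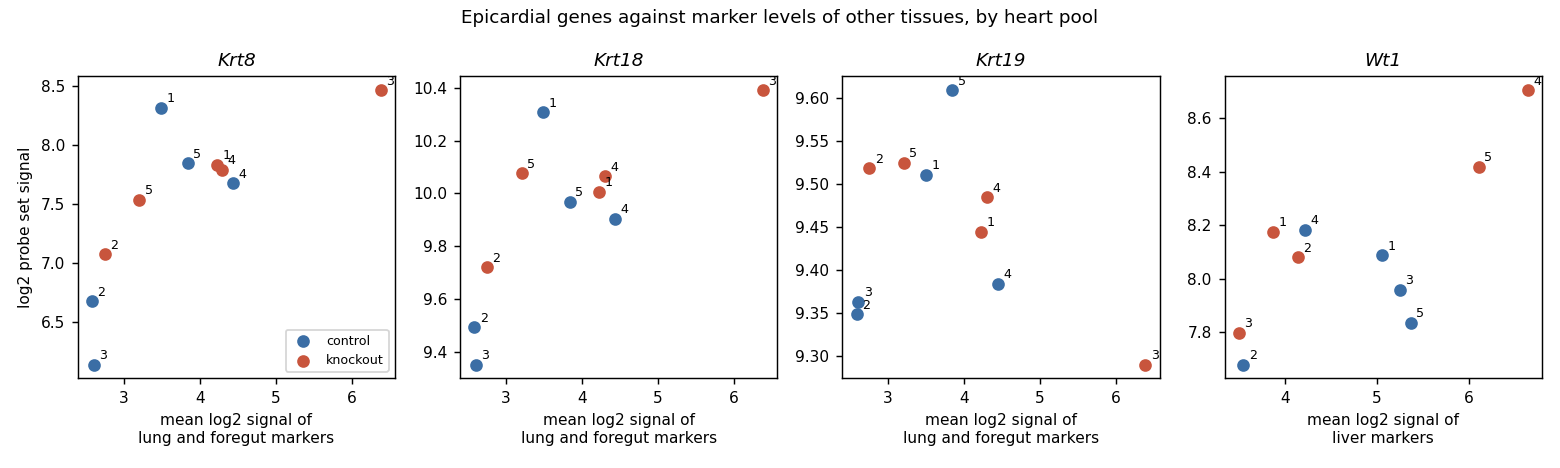
Log2 signal of Krt8, Krt18 and Krt19 against the mean log2 signal of 10 lung and foregut markers, and of Wt1 against that of 8 liver markers, with 1 point per heart pool labelled by replicate number. Krt8 and Krt18 were lowest in control replicates 2 and 3 and highest in knockout replicate 3, while Krt19 was lowest in knockout replicate 3.

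A wider list of 20 genes of epicardium and mesothelium was set beside the 10. None passed in limma, where 1.51% of genes passed by their brightest probe set, and 4 higher and 1 lower had an unadjusted p under 0.05, against 21.2% of all genes. The median log2 change was 0.13, against 0.21 for the 10 genes and 0.025 for all genes, and 13 of the 20 were positive, where 60.5% of all genes were. Chosen after their values were seen, those with an unadjusted p under 0.05 beside Clu were Gata5, a zinc-finger factor (log2 change 0.63), Ezr, the membrane linker ezrin (0.23), Sema3d, a secreted semaphorin (0.33), and Muc16, a mucin of mesothelium (-0.47). The mean log2 signal of Muc16 was 2.22, below every array median, so it may not lie above background. Clu, the secreted chaperone clusterin and the brightest of them, went from 13.00 to 13.28 (log2 change 0.28, SE 0.11, limma adjusted p = 0.197).

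Other genes of the retinoic acid pathway, to which Aldh1a2 belongs, gave no call either. Of 18 listed 16 were measured, none passed in limma and 1, Aldh1a3 (a related dehydrogenase, named after its value was seen, with a mean log2 signal of 3.16, below every array median), had an unadjusted p under 0.05, with a median log2 change of 0.040. Rarb, a retinoic acid receptor whose gene is induced by its own ligand, went from 9.76 to 9.91 (log2 change 0.16, SE 0.10, limma adjusted p = 0.398). Of 19 genes of growth factor signals to and from the epicardium none passed in limma, while 2 higher and 5 lower had an unadjusted p under 0.05. Of all genes 13.7% were higher and 7.46% lower at that p. The list's median log2 change was -0.011, and Tmsb4x, the brightest, a thymosin that binds actin, changed by -0.054 (SE 0.041, limma adjusted p = 0.471). Groups did not overlap for 4 of these 19 genes, against 5.79% of all genes in either direction. Named after their values were seen, these were Pdgfrb, a platelet-derived growth factor receptor (log2 change 0.45), and Fgf2, a fibroblast growth factor (0.32), with the knockouts higher, and Igf2, an insulin-like growth factor (-0.27), and Tgfbr3, a co-receptor for transforming growth factor beta (-0.39), with the knockouts lower. The mean log2 signal of Fgf2 was 3.02, below every array median, so it too may not lie above background.

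Genes of the epicardial transition and of the mesenchyme derived from it had a median log2 change of 0.012. Of 15, Zeb1 fell and the other 14 did not pass, where 1.51% of all genes passed in either direction and 0.550% were lower. At an unadjusted p under 0.05 were 2 higher, Vim and the related repressor Zeb2, and 2 lower, Zeb1 and the fibronectin gene Fn1. These were named after their values were seen. At that p, 13.7% of all genes were higher and 7.46% lower. Zeb1 is a repressor of epithelial genes, and its log2 signal went from 10.76 ± 0.10 in controls to 10.46 ± 0.083 in knockouts (mean ± SD, n = 5 each; log2 change -0.30, SE 0.058, limma adjusted p = 0.0453), with groups that did not overlap. That call was lost without any single array other than knockout replicate 1, with adjusted p from 0.0554 to 0.102, and the adjusted p ran from 0.0247 to 0.173 over all alternatives. For Vim, the intermediate filament of mesenchyme and the brightest of the list, the change was 0.27 on the log2 scale (SE 0.067, limma adjusted p = 0.089). Of 15 other keratins and uroplakins none passed in limma, and the median log2 change was 0.018. An unadjusted p under 0.05 was seen for 3, Krt10, Krt12 and Krt20, against 21.2% of all genes. Mean log2 signals of Krt12 and Krt20 were 2.27 and 3.50, below every array median, so they may not lie above background. Only 4 of these 15 had a mean signal above the median of all probe sets, the brightest being Krt10, a keratin of stratified epithelia (log2 change 0.31, SE 0.082, limma adjusted p = 0.101).

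**Figure D5:**
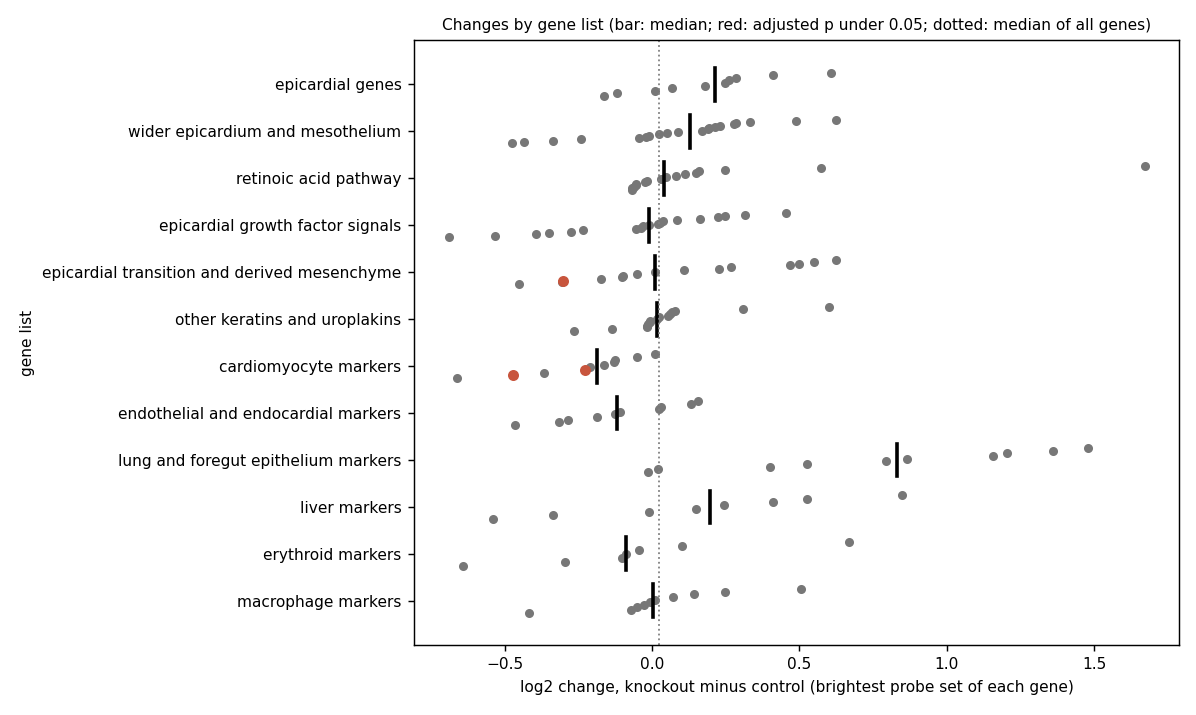
Log2 change, knockout minus control, of the brightest probe set of each gene in 12 lists, with 1 point per gene. Black bars are list medians, red points passed a limma adjusted p of 0.05, and the dotted line is the median of all genes (0.025). The epicardial list has a median of 0.21 and no gene past the threshold.

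Markers of the other cells of the heart stood beside these values. Of 10 cardiomyocyte markers Myh7 and Myl2, a myosin heavy and a myosin light chain, fell (log2 change -0.47 and -0.23, limma adjusted p = 0.0344 and 0.0351) and 8 did not pass, where 1.51% of all genes passed. At an unadjusted p under 0.05, 8 of the 10 were lower and none higher, against 7.46% of all genes lower. Groups did not overlap for 4 of the 10, against 5.79% of all genes in either direction. The list's median was -0.19; Actc1, cardiac actin and the brightest, changed by -0.13 (limma adjusted p = 0.079) and Tnnt2 by -0.12. With 1 array left out, Myh7 kept its call without control replicate 5 or knockout replicate 1, and Myl2 without knockout replicate 1; otherwise the limma adjusted p was up to 0.0871. The Myl2 call was also lost with median centring (limma adjusted p = 0.0752) and with the median filter (0.0546). None of 10 endothelial and endocardial markers passed in limma (median -0.12). Of these the 3 brightest, Emcn, Tek and Npr3, had log2 changes of 0.13, 0.023 and -0.19. At an unadjusted p under 0.05, 4 of the 10 were lower and 1 higher, against 7.46% and 13.7% of all genes. Beside Npr3, and named after their values were seen, the lower were Kdr (-0.46), Cdh5 (-0.29) and Tie1 (-0.31). The higher was Plvap (0.16). None of 7 measured erythroid markers passed (median -0.088; Hbb-y -0.088, Hba-x -0.29 and Slc4a1 -0.10), nor any of 10 macrophage markers (median 0.0026; Csf1r -0.049, Lyz2 -0.42 and C1qb 0.51). At an unadjusted limma p under 0.05, 1 erythroid marker was higher, Rhag (log2 change 0.67), and 1 lower, Alas2 (-0.64), both named after their values were seen. Among macrophage markers 1 was higher, C1qb, and 1 lower, Lyz2. Groups did not overlap for 1 gene of each list, Rhag with the knockouts higher and Lyz2 with the knockouts lower. The mean log2 signal of Rhag was 3.34, below every array median, so it may not lie above background. The part of these cell types in the epicardial values was not tested.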

How the data were processed

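The authors deposited log2 probe set signals of 10 Affymetrix arrays, made with RMA and Partek per the submitters' processing notes. No version or background option is given in the sources used here, which leaves the compression of low signals unknown. No detection calls were made, and no batch is named in the labels. Genotypes came from the sample titles. Of 45101 probe sets 64 array controls were left out and 45037 tested (R 4.3.3, limma 3.58.1; genotype as the one term in lmFit, then eBayes, two-sided, Benjamini-Hochberg, threshold 0.05, no filter on low values). For a gene, the probe set with the highest mean stood in 12 lists. Single values and probe set pairs were compared by exact permutation over the arrays. Members and lists were chosen with earlier results of these data known. Named are Hccs, the 10 genes, up to 3 called members and the brightest uncalled member of each list, the 3 brightest markers of each other cell type, and the 8 most alike genes; Sftpc, Nkx2-1, Krt7, Nkain4, Bnc1 and the genes so marked in the text were added after their values were seen. The fit was tested on simulated data.

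Alternatives were other choices of probe set, median centring, quantile normalization, leaving out probe sets under the median or the lower quartile of mean level, eBayes with trend and robust, array weights, a replicate block and each array left out. Leaving out the arrays numbered 3 and terms for lung and foregut or liver marker levels were added after seeing the data.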

Additional observations from a re-analysis of the deposited data

Results flagged for a closer look

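Of 50 sets of 5 arrays screened for a value far from the rest, 1 was met, where chance gives about 1 in 20. The mean log2 level of the endothelial and endocardial markers was 9.94 in control replicate 4, with the other controls between 10.10 and 10.15. No epicardial probe set had such a value.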

How the results depend on the processing

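The count of epicardial probe sets and of epicardial genes past the threshold was 1, Tcf21, in place of 0 with the brightest probe set of each gene, only probe sets with 1 symbol, filters at the median or the lower quartile, eBayes with trend and robust, and array weights, and it was 0 with each array left out. Tcf21 1417447_at, both Tbx18 probe sets, Wt1, Aldh1a2, Krt18, Upk3b 1454881_s_at, Upk1b 1457065_at and Upk1b 1439760_x_at stayed positive in all alternatives run. No reversed change passed the threshold in either fit. Upk1b was 0.066 as the mean of its probe sets, a setting that gives no value for single probe sets, and Upk1b 1455464_x_at was -0.0055 with quantile normalization, -0.043 without the arrays numbered 3 and -0.031 with the lung and foregut level as a term. Krt19 was -0.0092 with quantile normalization and -0.0070 with array weights. The Krt8 probe sets were -0.069, -0.14 and -0.11 without the arrays numbered 3, and 1420647_a_at and 1435989_x_at were -0.11 and -0.040 with the lung and foregut level. With 1 array left out, changes ran from -0.13 to 0.14 for Upk1b 1455464_x_at, from -0.10 to 0.030 for Tcf21 1458887_at, from -0.014 to 0.051 for Krt19, from -0.0027 to 0.15 for Upk3b 1434237_at, and from -0.29 to 0.11 for Msln. Among those that kept their direction the ranges were 0.11 to 0.66 for Krt8 1423691_x_at, 0.13 to 0.37 for Krt18, 0.098 to 0.24 for Tbx18 1429974_at, 0.38 to 0.54 for Tbx18 1449871_at, 0.17 to 0.40 for Wt1, 0.17 to 0.38 for Aldh1a2 and -0.28 to -0.024 for Upk1b 1435831_at. The cause was not tested.

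Probe sets called numbered 865 with the median filter, which tests fewer, 1756 with array weights, 44 without the arrays numbered 3, 121 with the lung and foregut level, and 66 to 1871 with 1 array left out. Hccs was called in the main comparison by its brighter probe set. That probe set missed the threshold at -0.59 without the arrays numbered 3 and at -0.59 with the lung and foregut level. It also missed it in 6 of the fits with 1 array left out (-0.60 to -0.48 over all 10 of them). Pairs of probe sets past the threshold numbered 0 without the arrays numbered 3 and 0 to 3 with 1 array left out. The median correlation of the 8 most alike genes was 0.93, 0.89 without the arrays numbered 3, and 0.87 to 0.95 with 1 array left out. The labels do not say whether pools with the same replicate number are related. Deviations from the genotype means correlated between -0.094 and 0.073 for same-numbered arrays, which cannot exclude a pairing. With the replicate number as a block, 29 probe sets were called, none of them epicardial, Hccs was -0.55 with a limma adjusted p of 0.0983 and Tcf21 had 0.0966. Pools are separate samples, and 5 per genotype leave intervals wide where pools vary, as for Krt8. Signal over background was not given.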
